A study of Mus musculus with 2 samples.

Results

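Described here are 9 genes of cytotoxic killing, taken by their symbols from the 50768 genes of the count tables: *Gzma*, *Gzmb*, *Gzmk*, *Gzmm*, *Prf1*, *Nkg7*, *Ctsw*, *Fasl* and *Tnfsf10*. All 9 were found in both tables. Their UMIs (unique molecular identifiers, each standing for 1 captured transcript) were followed in every barcode with at least 500 UMIs and at least 300 genes, and were divided between NK, ILC1-like and CD8 cells and between the strains.

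The study compared salivary glands of the NOD/ShiLtJ mouse, an inbred strain that develops autoimmune inflammation of the salivary glands and is used as a model of Sjögren's disease, with those of CD1, an outbred control strain. Both groups were female mice at 20 weeks of age, and the labels name no agent or allele beyond the strain and call the cells stromal enriched. Submandibular and sublingual glands of several mice were pooled, dissociated, depleted of EpCAM-positive and Ter119-positive cells and of dead cells, and sequenced as 1 single-cell library per strain (the labels give 3 mice per strain, the study's methods 4). With 1 library per strain no test of the strain was possible, so no p-value is given, every interval is a 95% interval that covers counting error only, and strain, pool and library cannot be told apart.

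Cytotoxic lymphocytes kill in 2 ways. In the first, granules are released onto the target, where perforin opens a path for the granzymes, a family of serine proteases that cleave proteins of the target cell. In the second, a ligand of the TNF family on the killer or on another cell, Fas ligand or TRAIL, engages a death receptor on the target. Conventional NK cells and CD8 T cells carry granules, whereas ILC1, their tissue-resident relatives, are known for TRAIL.

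The kept barcodes numbered 6500 in NOD and 7014 in CD1, with 43439635 and 49420810 UMIs and medians of 5719.5 and 6495 UMIs per barcode. The libraries shared 18 barcodes, which held 174 of the 50340 UMIs of the 9 genes in NOD and 39 of 23600 in CD1. Gates were set by the UMIs of 4 other genes: *Ncr1*, the NKp46 receptor of NK and ILC1 cells, *Eomes*, a transcription factor of NK cells, *Xcl1*, a chemokine, and *Cd8a*. A gate of *Ncr1* and *Eomes* without *Xcl1* held 38 NOD but only 4 CD1 barcodes, since most barcodes with *Ncr1* and *Eomes* also held *Xcl1*. NK cells are therefore given as all barcodes with *Ncr1* and *Eomes* and without *Cd8a*, a change made after the size of the gate was seen. These Ncr1 Eomes barcodes numbered 362 in NOD (5.57% of kept barcodes) and 173 in CD1 (2.47%). The ILC1-like gate (*Ncr1* and *Xcl1* without *Eomes* and *Cd8a*) held 405 (6.23%) and 239 (3.41%), and the CD8 gate (*Cd8a* without *Ncr1*) held 622 (9.57%) and 32 (0.456%).

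The gates were checked against markers they did not use. *Itga1*, an integrin of tissue-resident cells, was found in 89.9% of NOD and 88.7% of CD1 barcodes of the ILC1-like gate, and *Cd8b1*, the partner chain of *Cd8a*, in 76.5% and 78.1% of the CD8 gate. A Cd3 UMI (*Cd3d*, *Cd3e* or *Cd3g*, chains of the T cell receptor complex) was held by 92.9% and 78.1% of the CD8 gate. It was also held by 78.5% of NOD but 33.1% of CD1 barcodes of the ILC1-like gate, and by 70.4% and 38.7% of the Ncr1 Eomes barcodes, so neither is free of T cell transcripts. *Itga1* was also common in the Ncr1 Eomes barcodes, at 64.7% of NOD and 91.0% of CD1 barcodes with a Cd3 UMI. Without a Cd3 UMI the shares were 68.2% and 75.5%. *Itga1* therefore did not set these classes sharply apart, above all in CD1. The 6 T cell markers summed to 1999 counts per 1000000 UMIs (CPM) in NOD and 714 in CD1 in the ILC1-like gate, with 5 of 6 higher in NOD. Marker lists that include gate genes also differed in the Ncr1 Eomes barcodes. All 7 markers of conventional NK cells, *Eomes* among them, were higher in NOD, with a sum of 874 against 538 CPM and single genes between 4.77 and 330 in NOD and between 1.61 and 253 in CD1. Of 7 ILC1 markers, *Xcl1* among them, 6 were higher in CD1, with a sum of 2802 CPM against 2156 in NOD. Of 8 markers of the NK or ILC lineage, *Ncr1* among them, 5 were higher in CD1 (6528 against 5134 CPM).

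Apart from *Gzmm*, the transcripts divided into 3 patterns by place. UMIs of *Gzma*, *Gzmb* and *Prf1* lay mostly in barcodes with *Ncr1* or *Cd8a*, which held 97.6%, 80.2% and 91.4% of them in NOD and 97.9%, 98.6% and 98.1% in CD1. So did those of *Nkg7* (14096 of 17035 in NOD, 5042 of 5274 in CD1), *Fasl* (1297 of 1657, 553 of 586) and *Ctsw* (7056 of 9468, 3465 of 3710). *Gzmm* had 106 of 153 UMIs in such barcodes in NOD but 26 of 85 in CD1. *Gzmk* lay in the CD8 gate, with 59.3% of its UMIs in NOD and 55.6% in CD1, although that gate held 0.456% of CD1 barcodes. *Tnfsf10* had a large share outside the lymphocytes: endothelial-like clusters held 43.4% of its UMIs in NOD and 78.0% in CD1. Barcodes with *Ncr1* or *Cd8a* held 40.4% and 15.7%, and other barcodes with a Cd3 UMI (other T cells) 19.3% and 1.03%. Clusters and gates overlap, so a barcode can be counted in both. A Cd3 UMI was held by 124 of 952 NOD but 16 of 2456 CD1 endothelial-like barcodes. How much of the 19.3% came from such barcodes was not tested.

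**Figure D1:**
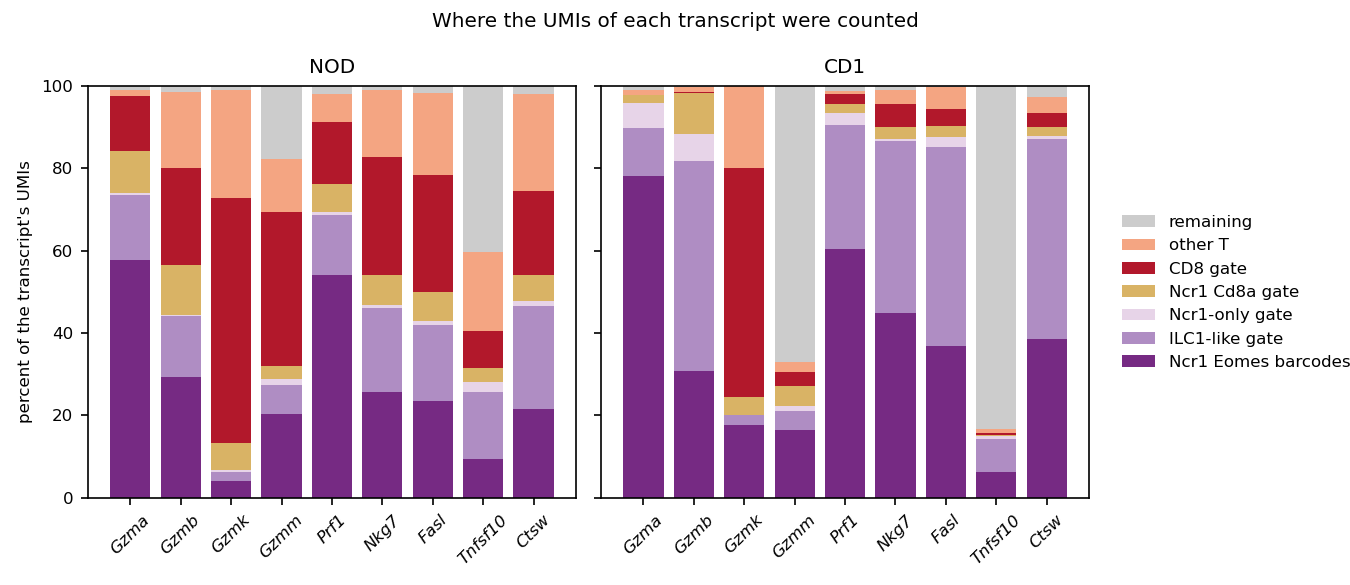
Stacked bars give the percent of each transcript's UMIs (vertical axis) counted in each gate, with NOD on the left and CD1 on the right; "remaining" are barcodes without Ncr1, Cd8a or Cd3 UMIs. Gzma and Prf1 are mainly in Ncr1 Eomes barcodes (57.8% and 54.0% in NOD, 78.2% and 60.4% in CD1), Gzmk mainly in the CD8 gate, and remaining barcodes hold 40.3% of Tnfsf10 in NOD and 83.3% in CD1.

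Between strains, *Gzma*, *Gzmb* and *Gzmk* differed, and the other 6 members did not pass the fold in the whole Ncr1 Eomes barcodes, ILC1-like gate or CD8 gate. A ratio was counted as past the fold when it was at least 2-fold, with at least 20 UMIs over both sides, and all genes were held to the same rule. This division depended on Cd3 in the Ncr1 Eomes barcodes. With a Cd3 UMI, *Prf1* passed the fold there at 228 CPM in NOD against 112 in CD1, but *Tnfsf10* (171 against 309) did not. Without a Cd3 UMI, *Tnfsf10* passed it, lower in NOD at 122 against 254 CPM, but *Prf1* (335 against 181) did not. In the Ncr1 Eomes barcodes 3 of 9 members (*Gzma*, *Gzmb*, *Gzmk*) were higher in NOD by this rule, where 5.61% of all 11846 genes were, and none was lower, where 4.74% were. The ILC1-like gate had 2 of 8 higher (*Gzma* and *Gzmk*; 6.25% of all genes) and none lower (6.13%). The CD8 gate had 3 of 9 higher (again *Gzma*, *Gzmb* and *Gzmk*; 11.2% of all genes) and none lower (9.08%). Median log2 ratios of the members were 0.32, 0.23 and 0.43 in the 3 gates, beside 0.03, 0.06 and 0.10 over all genes. In the gate of *Ncr1* and *Eomes* without *Xcl1*, with 4 CD1 barcodes, 2 of 5 members tested were higher (*Gzma* and *Nkg7*; 21.8% of all genes) and none lower (10%). Clusters gave the same 3 granzymes higher in the conventional NK-like cluster (5.69% of all genes) with *Tnfsf10* lower (3.96%), the same 2 genes higher in the ILC1-like cluster (5.19%) with none lower (3.93%), and the same 3 higher in the CD8 T-like cluster (11.9%) with none lower (5.42%).

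**Figure D2:**
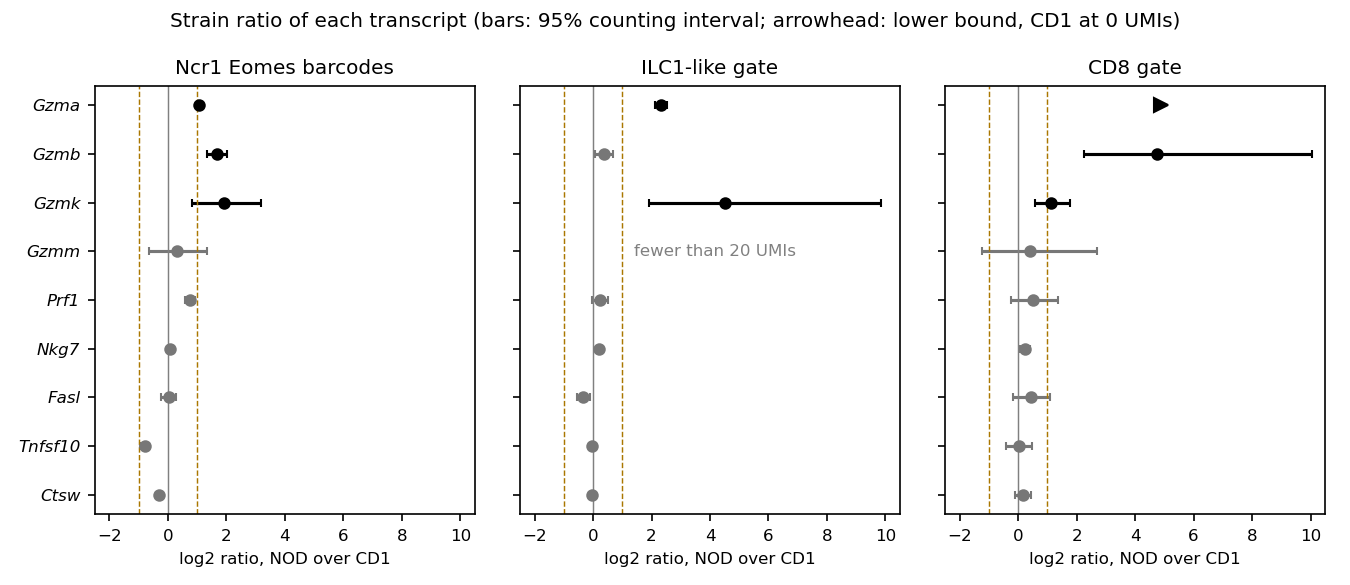
Each point is the log2 ratio of NOD over CD1 (horizontal axis) of 1 transcript in 1 gate, with its 95% counting interval; black points are past the fold, marked by dashed lines, and the arrowhead is a lower bound where CD1 had 0 UMIs. Gzma, Gzmb and Gzmk lie to the right of 1 in the Ncr1 Eomes barcodes and the CD8 gate, whereas Nkg7, Fasl, Tnfsf10 and Ctsw lie between -1 and 1 in each gate shown.

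Between cell classes, *Gzma* and *Prf1* were the members that set NK cells apart in both strains. Ncr1 Eomes barcodes over the ILC1-like gate had 3 of 9 members higher in NOD (*Gzma*, *Gzmm*, *Prf1*; 3.78% of all genes) and 2 of 7 in CD1 (*Gzma*, *Prf1*; 2.27%), with none lower in either (4.98% and 3.8%). The CD8 gate over Ncr1 Eomes barcodes had *Gzmk* higher in both strains (7.91% of all genes in NOD and 7.74% in CD1), and *Gzma* and *Prf1* lower in NOD (6.86%) and *Gzma*, *Gzmb* and *Prf1* lower in CD1 (13.1%). The CD8 gate over the ILC1-like gate had *Gzmk* and *Gzmm* higher in NOD (6.2%) and *Gzmk* in CD1 (6.69%), with *Tnfsf10* lower in NOD (6.81%) and *Gzma*, *Gzmb* and *Tnfsf10* lower in CD1 (13%).

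Clusters gave nearly the same genes between classes. The conventional NK-like over the ILC1-like cluster had *Gzma*, *Gzmm* and *Prf1* higher and *Tnfsf10* lower in NOD (4.44% and 5.49% of all genes), and *Gzma* and *Prf1* higher and none lower in CD1 (3.15% and 5.28%). The CD8 T-like over the NK-like cluster had *Gzmk* higher and *Gzma* and *Prf1* lower in NOD (6.49% and 8.82%) and in CD1 (4.37% and 12.5%). Over the ILC1-like cluster it had *Gzmk* and *Gzmm* higher and *Tnfsf10* lower in NOD (3.64% and 7.42%), and *Gzmk* higher and *Tnfsf10* lower in CD1 (3.88% and 13.1%). The NK gate without *Xcl1* gave other calls. Over the ILC1-like gate it had 3 members higher and 2 lower of 8 in NOD (9.97% and 11.9% of all genes), and 0 higher and 4 lower of 7 in CD1 (45.1% and 6.79%). The CD8 gate over it had 4 higher and 2 lower of 9 in NOD (11.9% and 14%), and 1 higher and 0 lower of 5 in CD1 (18.2% and 13.4%).

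*Gzma* encodes granzyme A, a trypsin-like granule protease and a marker of conventional NK cells. Its summed level in the Ncr1 Eomes barcodes was 1257 CPM in NOD (5540 UMIs) and 603 CPM in CD1 (1499 UMIs), a log2 ratio of 1.06 (0.98 to 1.14). In the ILC1-like gate it was 382 CPM (1508 UMIs) against 76.0 CPM (221 UMIs), a log2 ratio of 2.33 (2.13 to 2.54). The CD8 gate had 278 CPM in NOD (1277 UMIs) and no UMI in the 32 CD1 barcodes. With CD1 set at 3 counts over the gate the NOD level was 29.4-fold higher. That setting allows for counting error only, and 16 NOD barcodes (2.57% of the gate) held 81.8% of these UMIs. A set of 32 barcodes could miss such barcodes, so 29.4 is not a firm lower bound. As counted, *Gzma* was thus higher in NOD in all 3 gates. In both strains it was higher in Ncr1 Eomes barcodes than in the ILC1-like gate, by 1.72 on the log2 scale in NOD (1.64 to 1.80) and 2.99 in CD1 (2.78 to 3.20).

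The size of the *Gzma* ratio depended on how the cells were taken. Among ILC1-like barcodes without a Cd3 UMI it was 1063 CPM in 87 NOD barcodes and 103 CPM in 160 CD1 barcodes, a log2 ratio of 3.36, and among those with a Cd3 UMI 258 against 35.1 CPM. Among Ncr1 Eomes barcodes it was 2178 against 845 CPM without a Cd3 UMI and 1012 against 309 CPM with one. The strain difference was therefore found with and without Cd3 in both classes. The part of the higher *Itgam* and *Klrg1* of the NOD Ncr1 Eomes barcodes (74.2 and 41.1 CPM against 19.7 and 11.3 in CD1), markers of mature circulating NK cells, was not tested. Clusters made without the 9 genes and the 4 gate genes gave log2 ratios of 1.01 in the conventional NK-like cluster (303 NOD and 120 CD1 barcodes), 2.998 in the ILC1-like cluster (421 and 206) and 2.28 in the CD8 T-like cluster (448 and 31). In the CD8 T-like cluster CD1 had 78.3 CPM from 27 UMIs, 21 of them in 1 barcode and 6 in 1 other. The clusters did not even out Cd3 between strains. A Cd3 UMI was held by 356 of 421 NOD and 83 of 206 CD1 barcodes of the ILC1-like cluster. In the conventional NK-like cluster it was held by 188 of 303 and 36 of 120. The part of this difference in the cluster ratios was not tested.

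*Gzma* was carried by few barcodes in every gate. Of the Ncr1 Eomes barcodes, 78 in NOD (21.5%) and 25 in CD1 (14.5%) held 20 or more *Gzma* UMIs, and these held 86.4% and 82.5% of its UMIs there, while 48.1% and 61.3% held none. In the ILC1-like gate 23 NOD barcodes (5.68%) held 85.9% and 5 CD1 barcodes (2.09%) held 83.7%, and in the NOD CD8 gate 16 barcodes (2.57%) held 81.8%. The summed levels of the ILC1-like and CD8 gates were thus set by small subsets, and in the NOD CD8 gate 87.6% of barcodes held no *Gzma* UMI. The 23 *Gzma*-rich NOD barcodes of the ILC1-like gate had *Itga1* at 669 and *Cxcr6* at 649 CPM, near the 633 and 637 of barcodes without *Gzma*, whereas the 5 CD1 barcodes had 105 and 349 CPM against 474 and 490. Other genes differed between these NOD classes, with *Itgam* at 70.8 against 10.9 CPM, *Xcl1* at 3410 against 1713 and *Prf1* at 252 against 54.8.

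**Figure D3:**
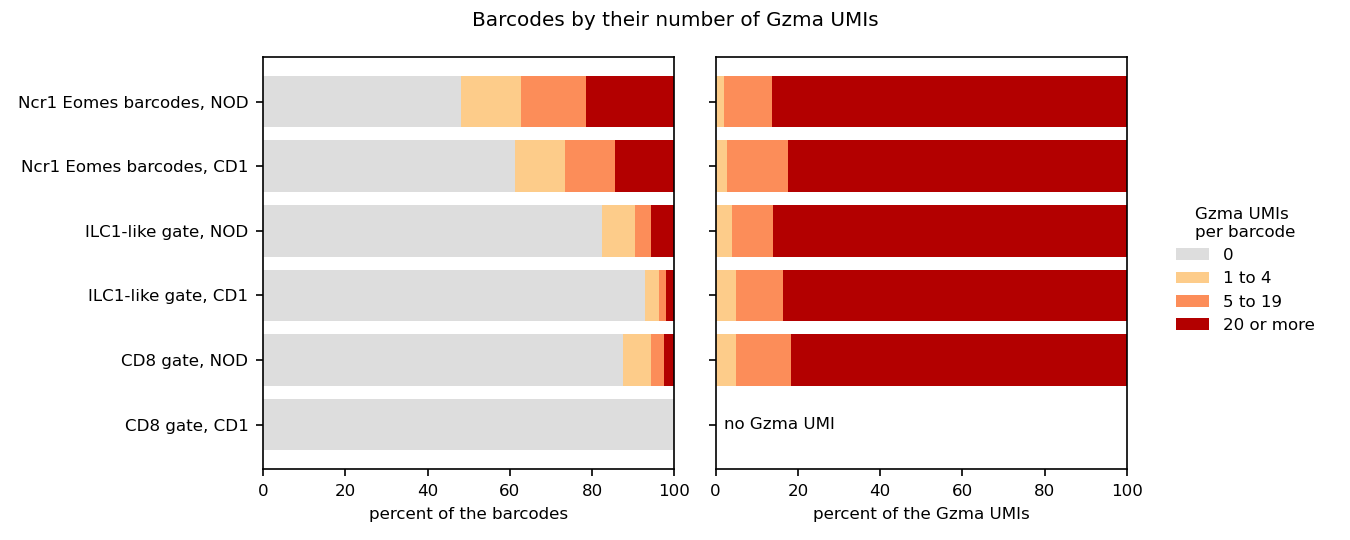
Horizontal bars split the barcodes of each gate and strain (left, percent of the barcodes) and their Gzma UMIs (right, percent of the UMIs) by the number of Gzma UMIs per barcode. Barcodes with 20 or more UMIs are a minority of each gate, 21.5% at most, but hold between 81.8% and 86.4% of the Gzma UMIs wherever any were counted.

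*Gzmb* encodes granzyme B, which cleaves after aspartate and activates caspases in the target. In the Ncr1 Eomes barcodes it was at 110 CPM in NOD (484 UMIs) and 34.2 in CD1 (85 UMIs), a log2 ratio of 1.68 (1.35 to 2.03). This interval does not cover the spread between barcodes, and few barcodes carried *Gzmb*. Over all barcodes with *Ncr1*, the top 10 held 37.0% of its UMIs in NOD and 63.1% in CD1. For *Gzma* the same shares were 18.6% and 42.4%. In the ILC1-like gate the levels were 62.6 and 48.5 CPM (247 and 141 UMIs) with a log2 ratio of 0.37 (0.06 to 0.68), which did not pass the fold. The CD8 gate had 390 UMIs in NOD (85.0 CPM) and 1 in CD1 (3.15 CPM), a log2 ratio of 4.75 with the wide interval of 2.27 to 10.06. *Gzmb* was therefore higher in NOD in NK and CD8 cells, and the CD1 side of the CD8 ratio rested on a single UMI. The CD8 T-like cluster, which takes in barcodes with *Ncr1* (23% of its barcodes in CD1 and 4% in NOD), gave 99.0 against 43.5 CPM and a smaller log2 ratio of 1.19 (0.44 to 2.04).

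Within NOD, *Gzmb* was found beside *Gzma* in the same barcodes. Ncr1 Eomes barcodes without *Gzma* had *Gzmb* at 15.0 CPM in NOD, and those with 20 or more *Gzma* UMIs at 317 CPM. In CD1 the same classes had 29.7 and 83.5 CPM. The NOD CD8 gate went the same way, with 64.8 CPM without *Gzma* and 314 CPM in the 16 barcodes with 20 or more. Among T cells outside the CD8 gate (barcodes with a Cd3 UMI and neither *Cd8a* nor *Ncr1*), *Gzmb* was at 23.0 CPM in NOD and 3.09 in CD1, but 130 of the 303 NOD UMIs came from 1 barcode. In these other T cells *Gzmb* and *Gzmk* were past the fold in favour of NOD (2 of 9 members; 9.4% of all genes) and *Gzma* in favour of CD1 (10.3%), where 21 of its 22 UMIs came from 1 barcode. The *Foxp3*-led T-like cluster of NOD (331 barcodes) had 28.7 CPM, and its 5 CD1 barcodes had no *Gzmb* UMI.

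*Gzmk* encodes granzyme K, a trypsin-like protease of memory and effector CD8 T cells. In the CD8 gate it was at 173 CPM in NOD (793 UMIs) and 78.8 CPM in CD1 (25 UMIs), a log2 ratio of 1.13 (0.56 to 1.77). In the Ncr1 Eomes barcodes it was at 12.03 and 3.22 CPM (53 and 8 UMIs), and in the ILC1-like gate at 7.85 and 0.344 CPM (31 UMIs and 1). *Gzmk* was thus highest in the CD8 gate of the 3 gates in both strains, above the Ncr1 Eomes barcodes by 3.84 on the log2 scale in NOD (3.44 to 4.27) and 4.62 in CD1 (3.42 to 5.97). The strain ratio in the CD8 gate fell just short of 2-fold without Scrublet-scored doublets and was 0.90 on the log2 scale when a Cd3 UMI was required, while the CD8 T-like clusters gave 1.86. In the ILC1-like gate the *Gzmk* log2 ratio of 4.51 (1.93 to 9.86) became 2.38 without doublets. In the GENCODE annotation *Gzmk* overlaps *Esm1* on the other strand, as *Ctsw* does *Fibp*. The CD1 CD8 gate also held more macrophage transcript, with 7 markers summing to 1097 CPM against 198 in NOD (0 to 482 and 3.05 to 69.7 for single genes, 6 of 7 higher in CD1, *Mrc1* at 0 in CD1), and 6 endothelial markers summing to 817 against 377. Their part in the strain ratios was not tested.

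*Gzmm*, which encodes a granzyme that cleaves after methionine or leucine, was near the limit of these libraries. It had 153 UMIs in all NOD and 85 in all CD1 kept barcodes. Levels in the Ncr1 Eomes barcodes were 7.03 and 5.63 CPM (31 and 14 UMIs) and in the CD8 gate 12.4 and 9.46 CPM (57 and 3 UMIs). No strain difference was detectable at this depth in either, with log2 ratios of 0.32 (-0.63 to 1.35) and 0.39. Endothelial-like barcodes held 42.4% of the CD1 UMIs at 1.94 CPM, so much of the *Gzmm* count lay at a level found in cells that should lack it.

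**Figure D4:**
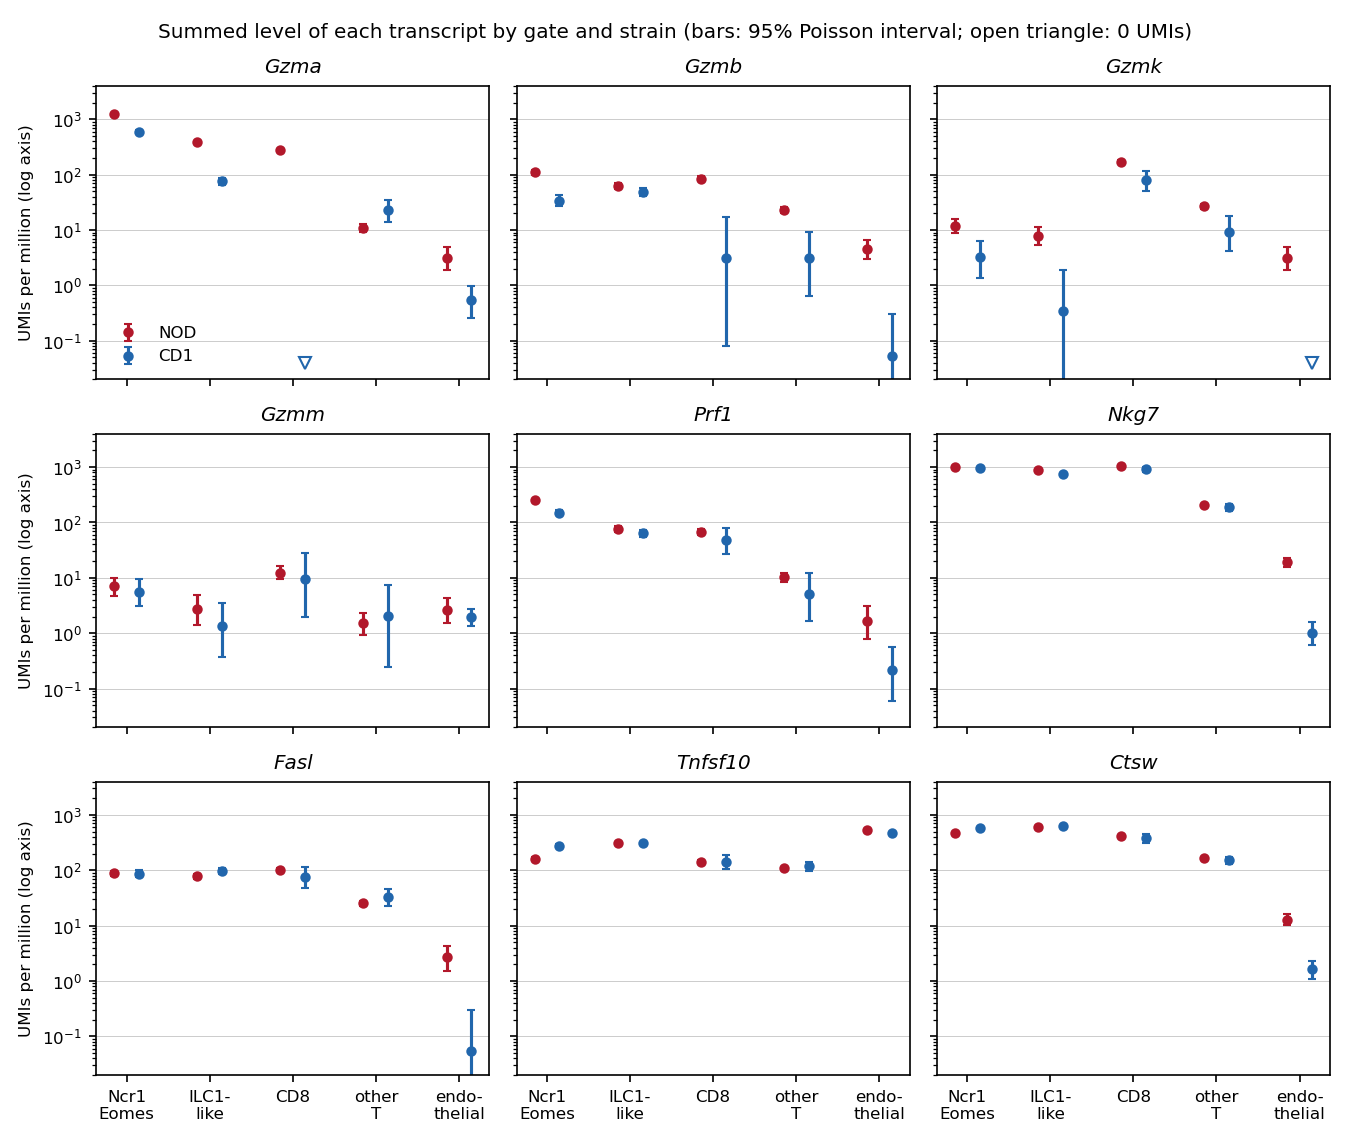
Each panel gives the summed level of 1 transcript in CPM (log axis) in 4 gates and the endothelial-like barcodes, NOD in red and CD1 in blue, with 95% Poisson intervals and an open triangle where no UMI was counted. Gzma and Prf1 are highest in Ncr1 Eomes barcodes, Gzmk in the CD8 gate, and Tnfsf10 in the endothelial-like barcodes.

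The promoters of the 4 genes on which the differences between gates and strains turn are shown, each from 250 bases before to 50 after the gene's start, 5′ to 3′ on the gene's strand, from RefSeq on GRCm38.p6 (8 of the 9 members had one, and *Ctsw* is named only). Capitals mark letters of 3 motifs searched on both strands: AGGTGT, the core bound by T-box factors such as Eomes and T-bet, TGTGGT, the core bound by Runx factors, and the interferon response element, GAAA followed by any pair of bases and a second GAAA. *Gzma* and *Gzmk* are neighbouring genes, and *Gzmb* lies beside *Gzmc*.
Gzma, chr13:113100932-113101231, minus strand: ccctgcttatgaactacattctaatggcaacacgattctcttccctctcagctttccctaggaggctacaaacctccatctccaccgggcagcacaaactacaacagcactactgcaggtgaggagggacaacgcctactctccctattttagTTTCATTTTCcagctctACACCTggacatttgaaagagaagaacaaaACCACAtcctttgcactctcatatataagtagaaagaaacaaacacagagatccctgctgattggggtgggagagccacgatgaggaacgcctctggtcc
Gzmk, chr13:113180916-113181215, minus strand: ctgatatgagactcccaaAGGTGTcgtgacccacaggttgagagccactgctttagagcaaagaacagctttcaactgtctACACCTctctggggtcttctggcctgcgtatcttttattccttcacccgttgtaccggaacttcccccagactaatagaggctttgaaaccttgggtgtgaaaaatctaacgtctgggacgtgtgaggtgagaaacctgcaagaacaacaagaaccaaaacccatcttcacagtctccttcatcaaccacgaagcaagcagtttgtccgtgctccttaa
Gzmb, chr14:56262285-56262584, minus strand: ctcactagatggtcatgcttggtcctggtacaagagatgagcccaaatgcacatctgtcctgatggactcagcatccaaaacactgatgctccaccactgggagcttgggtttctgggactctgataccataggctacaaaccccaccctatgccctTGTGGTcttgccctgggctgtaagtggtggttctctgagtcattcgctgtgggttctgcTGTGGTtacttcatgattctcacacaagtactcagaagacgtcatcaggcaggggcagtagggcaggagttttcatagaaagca
Prf1, chr10:61297586-61297885, plus strand: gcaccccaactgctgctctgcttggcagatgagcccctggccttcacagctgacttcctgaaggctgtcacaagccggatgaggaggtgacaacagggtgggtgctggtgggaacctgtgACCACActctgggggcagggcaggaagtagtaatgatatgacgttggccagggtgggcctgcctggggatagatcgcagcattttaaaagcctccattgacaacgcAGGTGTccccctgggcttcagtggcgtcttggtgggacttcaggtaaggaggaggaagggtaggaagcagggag
The T-box core was found in 4 of the 8 windows (*Gzma*, *Gzmk*, *Prf1*, *Nkg7*) and in 13.7% of all 32851 promoters of the same length. The Runx core was found in 5 (*Gzma*, *Gzmb*, *Gzmm*, *Prf1*, *Nkg7*; 16.8% of all), and the interferon response element in *Gzma* alone of the 8 (3.44% of all). In *Gzma* the matches lie at positions 154 to 163 (interferon), 171 to 176 (T-box) and 201 to 206 (Runx), counted from 1 at the 5′ end of the window, and no matches overlap. The windows of *Fasl* and *Tnfsf10* hold none of these letters. A match is a description of the letters and not a bound site.

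*Prf1* encodes perforin, the pore-forming protein without which granzymes do not reach the target. It was at 250 CPM in NOD (1103 UMIs) and 150 CPM in CD1 (372 UMIs) in the Ncr1 Eomes barcodes, a log2 ratio of 0.74 (0.57 to 0.92) that did not pass the fold. In the ILC1-like gate it was at 76.0 and 64.0 CPM (0.25, -0.02 to 0.52), and in the CD8 gate at 67.1 and 47.3 CPM (0.50, -0.24 to 1.36). Perforin therefore marked the difference between cell classes more than between strains: it was higher in Ncr1 Eomes barcodes than in the ILC1-like gate by 1.72 on the log2 scale in NOD (1.53 to 1.91) and 1.23 in CD1 (0.97 to 1.49). It was lower in the CD8 gate than in Ncr1 Eomes barcodes by log2 ratios of -1.90 in NOD (-2.09 to -1.72) and -1.66 in CD1 (-2.51 to -0.92).

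*Prf1* and *Gzma* were found in the same barcodes. To compare barcodes at equal depth each was thinned to 2000 UMIs, and 10 NOD and no CD1 Ncr1 Eomes barcodes fell below that depth. *Prf1* was then held by 58.1% of the NOD Ncr1 Eomes barcodes with *Gzma* and by 22.5% of those without, and by 46.7% and 17.2% in CD1. Its summed level went from 102 CPM without *Gzma* to 534 CPM with 20 or more *Gzma* UMIs in NOD, and from 84.8 to 329 CPM in CD1. In the NOD CD8 gate the same classes differed little, at 65.9 and 87.9 CPM.

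The thinned shares gave the same order of strains for these genes. *Gzma* was held by 42.0% of NOD (36.8 to 47.4) and 26.0% of CD1 Ncr1 Eomes barcodes (19.6 to 33.2), where unthinned shares were 51.9% and 38.7%. *Prf1* was held by 37.5% (32.4 to 42.8) and 24.9% (18.6 to 32.0), where unthinned shares were 71.3% and 67.6%. In the endothelial-like barcodes, which should lack both, the shares were 0.346% and 0.0870% for *Gzma* and 0.346% and 0.0435% for *Prf1*, at median depths of 5531 and 6821 UMIs. The median depths of the Ncr1 Eomes barcodes were 10019.5 and 11564 UMIs. *Gzmb* was held by 11.1% against 5.20% of Ncr1 Eomes barcodes. All these shares lay far above those of the endothelial-like barcodes.

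*Nkg7* encodes a granule membrane protein needed for granule release, and *Ctsw* a cysteine protease of NK and CD8 cells. *Nkg7* was at 996 and 954 CPM in the Ncr1 Eomes barcodes of NOD and CD1, at 875 and 754 in the ILC1-like gate and at 1062 and 908 in the CD8 gate. *Ctsw* was at 462 and 574, 603 and 620, and 421 and 378 CPM in the same order. Neither passed the fold between strains in any of the 3 gates, with log2 ratios of 0.06, 0.21 and 0.23 for *Nkg7* and -0.31, -0.04 and 0.15 for *Ctsw*. Both were spread over the cells where *Gzma* was not: after thinning, *Nkg7* was held by 79.0% and 76.3% of Ncr1 Eomes barcodes, 74.1% and 69.5% of the ILC1-like gate and 75.1% and 75.0% of the CD8 gate. The other T cells had lower levels, with *Nkg7* at 211 and 187 CPM and *Ctsw* at 170 and 151.

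*Fasl* encodes Fas ligand. Its levels were 88.3 CPM in NOD (389 UMIs) and 86.8 in CD1 (216 UMIs) in the Ncr1 Eomes barcodes, 77.5 and 97.3 in the ILC1-like gate (306 and 283 UMIs), and 102 and 75.7 in the CD8 gate (467 and 24 UMIs). The log2 ratios of 0.02 (-0.22 to 0.27), -0.33 (-0.57 to -0.09) and 0.43 (-0.16 to 1.08) did not pass the fold. The 3 gates also lay within 2-fold of each other in both strains. In the *Cd40lg*-led CD4 T-like cluster *Fasl* was at 36.3 CPM in NOD and 94.5 in CD1, where it rested on 26 barcodes, and in the endothelial-like barcodes it was at 2.67 and 0.0540.

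*Tnfsf10* encodes TRAIL, the ligand of the death receptor encoded by *Tnfrsf10b*, and differed from the other 8 genes in its high level in endothelial-like barcodes. Its highest levels were in the endothelial-like clusters, at 598 CPM in NOD (2562 UMIs) and 502 in CD1 (6915 UMIs) in the *Plvap*-led cluster and 384 and 364.6 in the *Mecom*-led cluster. Their strain ratios were small, at 0.25 (0.18 to 0.32) and 0.07 (-0.06 to 0.21) on the log2 scale. Among lymphocytes the ILC1-like gate was highest, at 305 CPM in NOD (1204 UMIs) and 309 in CD1 (899 UMIs), a log2 ratio of -0.02 (-0.15 to 0.11). The CD8 gate was also even between strains at 143 and 142 CPM, and was lower than the ILC1-like gate by log2 ratios of -1.09 in NOD and -1.12 in CD1.

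*Tnfsf10* was lower in NOD in the Ncr1 Eomes barcodes and in the conventional NK-like cluster. In the Ncr1 Eomes barcodes *Tnfsf10* was at 160 CPM in NOD (707 UMIs) and 279 in CD1 (694 UMIs), a log2 ratio of -0.80 (-0.95 to -0.65) that did not reach 2-fold. Most ILC1 markers were higher in CD1 in these barcodes, and their part in this ratio was not tested. In the conventional NK-like cluster the levels were 104 and 265 CPM and the log2 ratio of -1.35 (-1.58 to -1.12) did pass it, where 3.96% of all genes were lower in NOD by the rule. After thinning, 20.7% of NOD (16.6 to 25.4) and 34.7% of CD1 Ncr1 Eomes barcodes (27.6 to 42.3) held a *Tnfsf10* UMI. Barcodes with *Gzma* held it less frequently than barcodes without, at 13.5% and 26.0% in NOD and 24.4% and 38.3% in CD1. The summed levels showed no steady order: *Tnfsf10* was at 194 CPM in NOD Ncr1 Eomes barcodes without *Gzma* and at 86.9, 130 and 151 CPM in those with 1 to 4, 5 to 19 and 20 or more *Gzma* UMIs. In the NOD conventional NK-like cluster it was at 107 CPM without *Gzma* and 134 CPM with 20 or more. NOD macrophage-like barcodes had 27.2 CPM and CD1 ones 6.05, a log2 ratio of 2.17 (1.73 to 2.60), and *Nkg7* (73 and 12 UMIs) and *Ctsw* were past the fold there too (3 of 3 members tested higher, 8.31% of all genes; none lower, 5.01%). *Nkg7* and *Ctsw*, genes of lymphocytes, were likewise higher in NOD in the *Plvap*-led cluster (2 of 4 members tested, 8.1% of all genes; none lower, 3.45%) and, with *Gzmb*, in the *Mecom*-led cluster (3 of 4, 5.42%; none lower, 3.89%). The share of barcodes with a Cd3 UMI also differed in these clusters, at 14.1% in NOD and 0.407% in CD1 in the macrophage-like, 14.1% and 0.556% in the *Plvap*-led and 11.1% and 0.836% in the *Mecom*-led cluster. In empty droplets *Nkg7* was at 477 and 114 CPM, while *Tnfsf10* was lower in NOD at 110 and 133 CPM. The part of T cell transcripts and free RNA in these ratios was not tested.

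**Figure D5:**
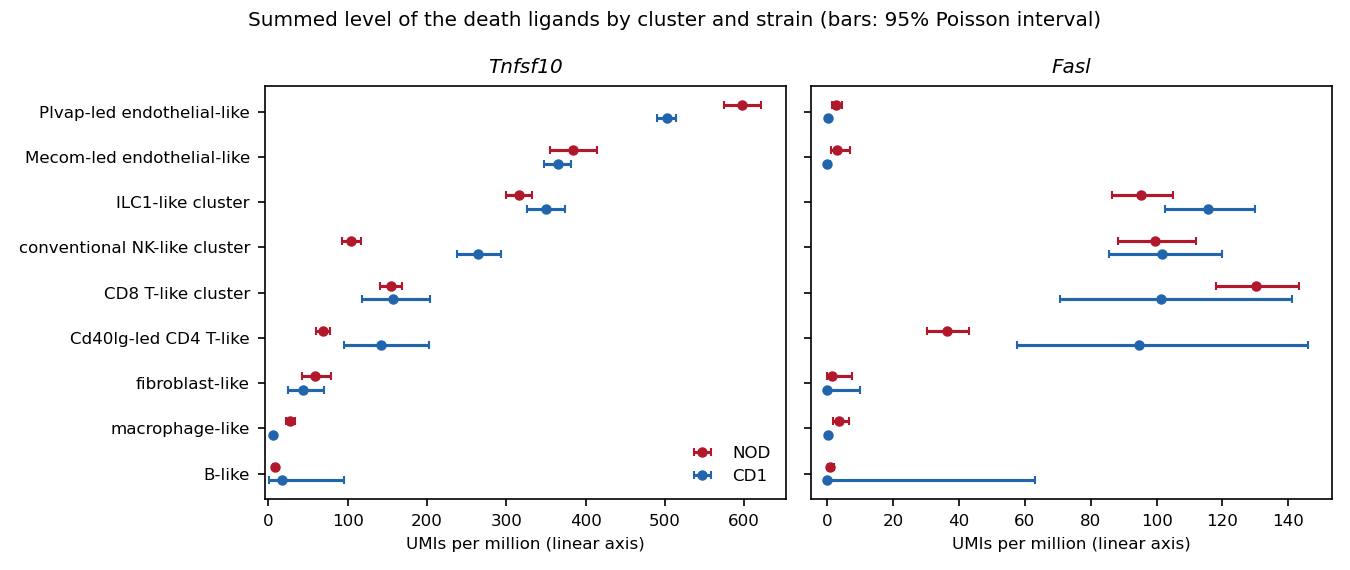
Points give the summed level of Tnfsf10 (left) and Fasl (right) in CPM (linear axes) in 9 clusters, NOD in red and CD1 in blue, with 95% Poisson intervals. Tnfsf10 is highest in the 2 endothelial-like clusters and Fasl in the NK, ILC1-like and CD8 clusters, and in the NK-like cluster Tnfsf10 of NOD (104) lies below CD1 (265).

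At equal depth, barcodes held several of the 9 genes together. After thinning, Ncr1 Eomes barcodes held a mean of 2.75 members in NOD and 2.53 in CD1, the ILC1-like gate 2.33 and 2.34, and the CD8 gate 2.28 and 1.86. Barcodes with both *Ncr1* and *Cd8a*, 69 in NOD and 7 in CD1, held 2.70 and 2.57, and 10 and 1 of them held 5 or more. The share of barcodes with 5 or more members was 11.9% and 5.78% in the Ncr1 Eomes barcodes, 2.90% and 1.72% in the ILC1-like gate, and 5.15% and 0 of 28 in the CD8 gate. No endothelial-like barcode held more than 3, whereas 51.4% and 50% of the other T cells held none.

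Across 46 profiles (clusters of at least 20 barcodes by library, log2 of CPM plus 10), the genes most like each member followed these places. *Gzma* was most like *Eomes* (Pearson r 0.863), *Klre1* and *Klra4*. *Prf1* was most like *Klre1* (0.897), *Eomes* and *Gzmb*, and *Gzmb* like *Gm6637* (0.882), *Prf1* and *Gzma*. *Gzmk* was most like *Cd8a* (0.876), *Cd8b1* and *Cxcr3*. *Nkg7*, *Fasl* and *Ctsw* formed a group of their own with r of 0.949 between *Nkg7* and *Ctsw* and 0.932 between *Ctsw* and *Fasl*; *Il2rb* led for *Ctsw* (0.969) and *Tbx21* for *Fasl* (0.933), with *Cd226*, *Il18rap*, *Ms4a4b* and *Samd3* also among the closest. *Tnfsf10* was most like *Rgs3* (0.873), *Itga1* and *Mfsd6*, and its r with the other members was between 0.169 and 0.439. *Gzmm*, led by *Cfap77* (0.670), *D930048N14Rik* and *Mars2*, had the lowest top value. These are correlations across clusters that share 2 libraries and their depth, not across replicates.

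Over all kept barcodes 8 of the 9 members were past the fold in favour of NOD (15.9% of all genes were) and none in favour of CD1 (14.6%), with log2 ratios from 1.03 for *Gzmm* to 5.08 for *Gzmk* and a median of 1.88 beside 0.10 over all genes. *Gzma* was at 221 CPM in NOD and 38.8 in CD1, and *Prf1* at 47.0 and 12.5. *Tnfsf10* was the exception with 171 and 224 CPM, a log2 ratio of -0.40. In such totals more cells of a class and more RNA per cell cannot be told apart, and the gates themselves differed in size, above all the CD8 gate.

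The other genes of the pathway were taken from lists of its roles. Of the further granzymes (*Gzmc* to *Gzmg* and *Gzmn*), *Gzmc* alone had the 20 UMIs needed, and it lay in ILC1-like cells: 76.5 CPM in NOD (302 UMIs) and 120 in CD1 (348 UMIs) in that gate against 16.3 and 19.7 in the Ncr1 Eomes barcodes. It was therefore lower in NK cells by log2 ratios of -2.23 (-2.62 to -1.85) and -2.60 (-3.06 to -2.17), the opposite of *Gzma*. With a Cd3 UMI the ILC1-like *Gzmc* level was 88.6 CPM in NOD and 176 in CD1, and without one 9.86 and 82.2. The Ncr1 Eomes barcodes had 18.7 and 35.6 CPM with a Cd3 UMI, and 7.56 and 6.61 without one. In NOD without a Cd3 UMI the classes were thus near each other, on 6 ILC1-like and 7 Ncr1 Eomes UMIs. The *Gzmc* gene is a close relative of its neighbours, among which reads could be split.

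Of the granule assembly and release genes, all 14 were tested in each gate, and 1 was higher in NOD in the Ncr1 Eomes barcodes (5.61% of all genes) and in the ILC1-like gate (6.25%). It was *Ctsl*, a lysosomal protease, at 36.0 and 15.1 CPM in the ILC1-like gate (log2 ratio 1.25, 0.75 to 1.77). In the CD8 gate 4 of 14 were lower in NOD (9.08% of all genes), among them *Ctsl* (-2.41), *Ctsh* (-1.78) and *Ctsc* (-1.18), proteases that process granzymes or other lysosomal proteins and that macrophages also express, beside the macrophage marker sums above, whose part was not tested. *Srgn*, the proteoglycan that packs granules, was within 2-fold in every gate, at 664 and 691 CPM in the ILC1-like gate.

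Among inhibitors of granzymes, cathepsins and death signalling, 3 of 7 tested were higher in NOD in the Ncr1 Eomes barcodes (5.61% of all genes) and none lower (4.74%), and the other 4 did not pass the fold. In the ILC1-like and CD8 gates none of 6 passed in either direction (6.25% and 11.2% of all genes were higher). The 3 were *Serpinb9*, an inhibitor of granzyme B, at 111 and 35.8 CPM (log2 ratio 1.63, 1.30 to 1.97), *Serpinb6b* at 86.5 and 26.9 CPM (1.68, 1.31 to 2.08) and *Serpinb9b* with 69 UMIs in NOD and none in CD1. These 3 were named after their values were seen, and as close relatives they may share reads. Whether the strains differ in the sequence of *Serpinb9b*, and so in how its reads map, was not tested. *Serpinb9* was also higher in NK than in ILC1-like cells in NOD (log2 ratio 1.63, 1.36 to 1.91) but not past the fold in CD1 (0.21, -0.23 to 0.65).

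Among ligands, cytokines and factors, *Ifng*, the gene of interferon gamma, was higher in NOD in the ILC1-like gate at 134 against 56.4 CPM (log2 ratio 1.25, 1.00 to 1.51). It was the single one of 5 past the fold there (6.25% of all genes were higher and 6.13% lower). In the CD8 gate it was at 130 against 37.8 CPM (1.78, 0.96 to 2.74), on 12 CD1 UMIs, the single one of 4 tested that was higher (11.2% of all genes). *Lta*, lymphotoxin alpha, was the single one lower in the CD8 gate (-2.56, from 49 and 20 UMIs, with 9.08% of all genes lower). In the Ncr1 Eomes barcodes none of 5 was higher (5.61% of all genes) and *Lta* alone was lower (4.74%). *Tbx21*, which encodes T-bet, a driver of the cytotoxic programme, was at 160 and 47.3 CPM in the CD8 gate (1.76, 1.03 to 2.60), on 15 CD1 UMIs. It was the single one of 8 tested factors past the fold there (11.2% of all genes were higher and 9.08% lower). It was at 294 and 250 CPM in the ILC1-like gate. *Prdm1*, which encodes Blimp-1, was the single one of 8 factors past the fold in the ILC1-like gate (6.25% of all genes were higher and 6.13% lower). It was at 9.88 CPM in NOD and 28.9 in CD1 (-1.55, -2.13 to -0.98). Of the death receptors and their signalling, none of 8 passed the fold in the ILC1-like gate (6.25% of all genes were higher and 6.13% lower). In the CD8 gate, of 10 tested, *Bid* was higher and *Tnfrsf22* lower, on 2 and 3 CD1 UMIs (11.2% and 9.08% of all genes). Counts of 1 gene in lists of this size cannot be set apart from the shares over all genes. In the gate of *Ncr1* and *Eomes* without *Xcl1*, *Lyst*, *Cflar*, *Casp8*, *Zeb2* and *Tox* were past the fold in favour of NOD, but its CD1 side was 4 barcodes and 21.8% of all genes passed there.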

How the data were processed

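Analysis of the NOD/ShiLtJ library and the CD1 library started from the raw UMI counts that the authors deposited, made per the file headers with Cell Ranger 8.0.0 and not normalized. The submitters' processing notes name GRCm39, Seurat 5.0.1 and R 4.3.1. Barcodes with at least 500 UMIs and 300 genes were kept, with no mitochondrial limit and no doublet removal (Scrublet in scanpy 1.11.5 was an alternative). The 9 genes and all lists were chosen with earlier results of these data known. UMIs were summed within each gate, scaled to CPM and given Poisson intervals (exact). Ratios had conditional binomial and shares Clopper-Pearson intervals at 95%, for counting error only, and a side with 0 UMIs was set at 3 counts over the gate. Shares were taken after thinning each barcode to 2000 UMIs. Past the fold meant a log2 ratio of at least 1 in size with at least 20 UMIs over both sides. The scripts were tested on simulated data.

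Barcodes were also clustered in Seurat 5.3.0 (R 4.3.3) on 2000 variable features without the 9 genes, the 4 gate genes and mitochondrial genes (anchor integration of both libraries, 30 dimensions, Louvain resolution 0.5), with the lymphoid clusters clustered once more, and named from fixed marker lists when at least 3 markers were raised. Named genes of the pathway lists were those past the fold between strains in the NK, ILC1-like or CD8 gate, at most 4 per list by the interval bound nearest 0, and the 3 genes most like each member by Pearson r over 15419 genes. The *Serpinb* genes, *Gzmc*, *Srgn* and *Ifng* of the CD8 gate were named after their values were seen. Sums used Python 3.11.15, numpy 2.4.6, scipy 1.17.1 and pandas 2.3.3.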

Additional observations from a re-analysis of the deposited data

Results flagged for a closer look

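*Gzmb* summed over each gate took opposite directions between cell classes in the 2 strains. Over the ILC1-like gate, the Ncr1 Eomes barcodes had log2 ratios of 0.81 in NOD (0.59 to 1.04) and -0.50 in CD1 (-0.91 to -0.11), and the CD8 gate 0.44 in NOD and -3.94 in CD1, where the CD8 gate held 1 *Gzmb* UMI. Among CD1 barcodes without a Cd3 UMI, *Gzmb* was near equal, at 30.1 CPM in the Ncr1 Eomes barcodes and 29.9 in the ILC1-like gate. With a Cd3 UMI these CD1 levels were 39.1 and 76.2 CPM, from 9 and 12 barcodes with *Gzmb*. In NOD they were 146 and 39.4 CPM without a Cd3 UMI and 100 and 66.8 CPM with one. *Tnfsf10* in the CD8 T-like over the conventional NK-like cluster was at 0.57 in NOD and -0.76 in CD1. The difference between strains was not tested in these 3 cases, since each strain has 1 library.

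Empty droplets (barcodes with 10 to 100 UMIs, 64931 in NOD and 70666 in CD1) held the granule genes at higher levels in NOD than in CD1. *Gzma* was at 240 CPM in NOD empty droplets and 34.4 in CD1 ones, *Gzmb* at 46.7 and 5.34, *Gzmk* at 34.9 and 0.593, *Prf1* at 41.4 and 7.42, *Nkg7* at 477 and 114, *Fasl* at 34.3 and 12.2 and *Ctsw* at 316 and 120. Subtracting this profile at an assumed 5% of each barcode's UMIs left all 60 values recomputed under it within the range set for them. The NK values among them used the gate without *Xcl1* and not the Ncr1 Eomes barcodes. The true share of free RNA was not measured in either strain, so a larger or unequal share was not tested.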

How the results depend on the processing

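Values of the 9 genes and the sizes of the planned gates were recomputed under other settings. These were at least 1000 UMIs and 500 genes, at most 10% mitochondrial UMIs, doublets removed (338 NOD and 394 CD1 barcodes), median-of-ratios scaling, equal weight per barcode and free RNA subtracted. Others were Cd3 excluded from the NK and ILC1-like gates and required in the CD8 gate, clusters in place of gates, and shares after thinning to 1000 in place of 2000 UMIs per barcode. The NK gate with or without *Xcl1* was chosen after seeing the data. In this section NK cells means the planned gate of *Ncr1* and *Eomes* without *Xcl1* (38 NOD and 4 CD1 barcodes). The Ncr1 Eomes barcodes entered only as the setting with or without *Xcl1*, and were not recomputed here under the others. Of the summary values 73 stayed within the range set for them, 14 moved and 1 reversed, and of the values of single genes 438, 86 and 4. For counts of members the range was set on the count alone, whatever the direction of the members. For single genes it was the counting interval, and only genes called in the main setting could be named reversed. With clusters, members past the fold between strains in NK cells went from 2 to 4, CD8 over NK cells from 6 to 3 in NOD and from 1 to 3 in CD1, and NK over ILC1-like cells from 4 to 2 in CD1. With or without *Xcl1*, NK over ILC1-like cells went from 5 to 3 in NOD and to 2 in CD1, and CD8 over NK cells to 3 in NOD and 4 in CD1. With Cd3 set, the ILC1-like gate went from 2 members to 1 (with too few *Gzmk* UMIs left) and CD8 over NK cells in CD1 to 2. The log2 ratio of the share of barcodes in the NK gate, 3.36, became 1.45 with clusters and 1.18 with or without *Xcl1*, and that of the ILC1-like gate, 0.87, became 1.14 with clusters and reversed to -0.77 with Cd3 excluded (87 NOD and 160 CD1 barcodes). Thinning to 1000 UMIs moved the members with the higher NOD share in the ILC1-like gate from 4 to 8 of 9. *Nkg7* in NK over ILC1-like cells of CD1 reversed to 0.29 with clusters and 0.34 with or without *Xcl1*, *Tnfsf10* in CD8 over NK cells of NOD to -0.17 and *Nkg7* in CD8 over NK cells of CD1 to -0.0705, both with or without *Xcl1*. Median-of-ratios scaling shifted NOD over CD1 in the NK gate by -0.58 and CD8 over NK cells in NOD by -0.13. Other causes were not tested. No paired analysis was possible because each strain has 1 library. Depth limits *Gzmm* everywhere and *Gzma*, *Gzmb* and *Gzmm* in the 32 CD1 barcodes of the CD8 gate.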
